A study of Mus musculus with 6 samples.

Results

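Itgax encodes CD11c, the surface integrin chain by which the cells of this experiment were isolated and whose regulatory sequences drove Cre in the knockout mice. The genes described here are Itgax and 8 genes that lie beside it on chromosome 7, Itgam, Itgad, Cox6a2, Zfp843, Armc5, Tgfb1i1, Slc5a2 and Trim72, chosen by position because a CD11c-Cre transgene may carry them. Rows were taken from the gene count table by symbol. Of these 9 genes, 8 had a row among the 31426 genes of the table, and no row was found under the symbol Zfp843, which was not analysed here.

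RNA-seq was performed on 6 libraries of hepatic CD11c+ cells, a fraction of DCs and CD11c-expressing macrophages isolated with magnetic beads against CD11c. The Atg5 CD11cKO group (libraries 25, 26 and 27, below KO) came from Atg5 flox/flox mice that carried the CD11c-Cre transgene Tg(Itgax-cre)1-1Reiz, described in the methods as homozygous for the floxed allele and for Cre. The WT group (libraries 21, 22 and 23) carries the genotype label WT, and the study describes its WT controls as littermates with the floxed gene, without saying whether they carried Cre. All mice were C57BL/6, labelled 4-8 weeks of age, and both groups received HFD for 14 weeks. The Cre transcript was not analysed here. The sources used here do not tie a library to a mouse, so the p-values measure the spread between libraries, which may be technical. Libraries held 31064570 to 34034675 counts.

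One library went against its label. Atg5, the deleted gene, was at 21.3, 21.0 and 20.8 CPM (counts scaled to library size, with TMM factors) in the KO libraries, against 54.0 and 49.8 CPM in WT 21 and WT 22, while the library labelled WT 23 had 22.1 CPM. Over the genes tested, the chi-square per degree of freedom between libraries was 6.44 to 7.18 among the KO libraries and 5.93 to 7.42 between them and the library labelled WT 23. It was 208.4 to 215.9 between WT 21 or WT 22 and the other 4 libraries, and 10.16 between WT 21 and WT 22. The tests of the members are therefore given without the library labelled WT 23 and over all 6 libraries as labelled. Leaving that library out was chosen with results of these data known, and the p-values do not allow for that choice. Other genes and lists are given without that library, and edgeR called none of them over all 6 libraries.

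The CD11 chains are alpha subunits of the beta2 integrins. Each pairs with the common beta chain CD18, encoded by Itgb2, to form an adhesion receptor of leukocytes: CD11a (Itgal) forms LFA-1, CD11b (Itgam) forms Mac-1 or complement receptor 3, CD11c (Itgax) forms complement receptor 4, and CD11d (Itgad) is best known from tissue macrophages such as those of the splenic red pulp. CD11c is high on mouse DCs and on some macrophages, and CD11b marks monocytes, macrophages, neutrophils and the cDC2 subset. A transgene built on a large genomic clone can bring along the genes that lie beside the chosen one, which are then called passengers. Neither the length of the clone nor the genes on it were examined in these data.

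In the order of the chromosome, the positions of the members in the files, on the build mm10, are as follows. Trim72 lies at 128003949 to 128011033, Itgam at 128062640 to 128118491, Itgax at 128129547 to 128150657 and Itgad at 128154376 to 128223816, all on the plus strand. Itgad begins 3.72 kb after the end of Itgax. Cox6a2, at 128205435 to 128206387, lies on the minus strand inside the span of Itgad. Armc5 (128237342 to 128245100), Tgfb1i1 (128246812 to 128255699) and Slc5a2 (128265657 to 128272430) follow on the plus strand. Itgal lies on the same chromosome, at -833.3 kb from the start of Itgax.

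The sequence just before a gene's start is shown for Itgax and Itgam because Itgax regulatory sequence is what drives Cre in these mice. Of the 9 genes, 3 were found in the RefSeq promoter table (GRCm38.p6), Itgax, Itgam and Trim72. Itgax is shown at chr7:128129300-128129549 and Itgam at chr7:128062390-128062639, both 250 bases on the plus strand that end at the base before the RefSeq start. Capitals mark the letters GAGGAA on either strand (TTCCTC), a sequence of the kind bound by PU.1, the ETS factor of myeloid cells encoded by Spi1.
Itgax: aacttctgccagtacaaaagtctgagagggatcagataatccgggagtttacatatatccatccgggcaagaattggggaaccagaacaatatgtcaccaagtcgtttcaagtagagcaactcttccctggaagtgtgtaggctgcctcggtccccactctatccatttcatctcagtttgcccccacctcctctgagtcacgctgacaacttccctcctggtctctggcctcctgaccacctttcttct
Itgam: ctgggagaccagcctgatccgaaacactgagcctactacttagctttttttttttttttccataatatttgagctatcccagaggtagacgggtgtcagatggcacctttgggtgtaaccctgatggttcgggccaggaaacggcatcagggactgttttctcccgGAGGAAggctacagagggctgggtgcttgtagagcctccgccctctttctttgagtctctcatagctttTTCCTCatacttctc
The Itgam window held 2 matches, whose first bases lie 84 and 15 bases before the start, and the Itgax window held 0. At least 1 match was found in 23.3% of the 32851 promoter windows of the table. These letters are a description of the windows and not of binding.

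The coding sequences of the 3 CD11 genes that lie together are alike, which bears on how reads can be assigned to them. Itgax and Itgad were identical at 73.5% of aligned coding bases, Itgax and Itgam at 66.0%, and Itgam and Itgad at 66.5%, while Itgal was identical with each of them at 60.1% to 61.7%. The stretch of 90 coding bases below held the most identical bases of any gapless window of that length, and capitals mark the 76 bases identical in all 3 genes. It lies in exon 14 of Itgax (chr7:128136292-128136381), exon 14 of Itgam (chr7:128101664-128101753) and exon 15 of Itgad (chr7:128190019-128190108), all on the plus strand of GRCm38.
Itgax: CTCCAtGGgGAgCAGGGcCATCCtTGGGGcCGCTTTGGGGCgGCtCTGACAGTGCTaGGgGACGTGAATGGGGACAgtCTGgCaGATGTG
Itgam: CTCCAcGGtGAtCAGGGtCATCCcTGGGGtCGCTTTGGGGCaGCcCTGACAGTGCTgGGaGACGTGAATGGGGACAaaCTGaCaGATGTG
Itgad: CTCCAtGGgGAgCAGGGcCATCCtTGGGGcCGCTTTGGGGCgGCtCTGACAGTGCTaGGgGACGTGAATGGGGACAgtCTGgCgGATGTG

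The longest unbroken run of coding bases that Itgax and Itgad share is 188 bases, so a read from within it fits both genes. The run is shown because Itgad, the lower of the pair in level, is one of the genes on which the comparison turns. In Itgax it crosses exons 11, 12 and 13, at 128135612 to 128135630, 128135718 to 128135860 and 128136037 to 128136062. In Itgad it crosses exons 12, 13 and 14, at 128189340 to 128189358, 128189445 to 128189587 and 128189764 to 128189789.
Shared run: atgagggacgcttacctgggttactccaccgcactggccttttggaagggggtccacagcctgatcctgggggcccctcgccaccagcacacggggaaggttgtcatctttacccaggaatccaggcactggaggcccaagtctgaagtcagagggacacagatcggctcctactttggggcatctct
Of all words of 50 bases, 384 were shared, 8.02% of those of Itgax and 8.43% of those of Itgad, and not all of them lie in this run. None were shared between Itgam and either of the other 2 genes, where the longest identical coding run was 16 bases. The sources used here do not say how reads that fit both genes were counted, so a part of the Itgad count may belong to Itgax or the reverse.

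Itgax, by whose product the cells of all libraries were isolated, was nearly level between the groups. It was at 492, 464 and 483 CPM in KO 25, 26 and 27, against 432 and 444 CPM in WT 21 and WT 22, while the library labelled WT 23 had 472 CPM. All KO libraries lay above WT 21 and WT 22, and the library labelled WT 23 lay within the range of the KO libraries. The means were 479.3 ± 14.3 CPM in KO cells (SD, n = 3) and 437.8 ± 8.33 CPM in WT 21 and WT 22 (SD, n = 2), a ratio of 1.09. Without the library labelled WT 23, edgeR's quasi-likelihood test gave a log2 fold change of 0.14 (KO over WT, SE 0.04, 95% interval 0.06 to 0.22) at an adjusted p of 0.01495. With WT 21 left out as well, which leaves 1 WT library, the log2 fold change was 0.12. Over 14 alternatives it ranged from 0.12 to 0.16, and the call was lost in 1 of them, the fit without WT 21. Over all 6 libraries as labelled the log2 fold change was 0.09 (SE 0.08, 95% interval -0.08 to 0.27) at an adjusted p of 0.536.

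Itgam rose in KO cells once the library labelled WT 23 was left out. CD11b was at 193.8, 157.4 and 158.6 CPM in the KO libraries, against 98.6 and 109.1 CPM in WT 21 and WT 22, while the library labelled WT 23 had 179.0 CPM. The KO libraries and WT 21 and WT 22 did not overlap, and the library labelled WT 23 was again inside the KO range. The log2 fold change was 0.72 (SE 0.09, 95% interval 0.52 to 0.91) at an adjusted p of 9.15e-05, with means of 170.0 ± 20.7 CPM in KO cells (SD, n = 3) and 103.8 ± 7.48 CPM in WT 21 and WT 22 (SD, n = 2), 1.64-fold higher in KO cells. With all 6 libraries it was 0.40 (SE 0.22) at an adjusted p of 0.3994. The ratio of Itgam to Itgax CPM was 0.394, 0.340 and 0.329 in the KO libraries, against 0.228 and 0.246 in WT 21 and WT 22, and 0.379 in the library labelled WT 23. An overlapping gene model, Gm49368, shares 68.7% of the exon bases of Itgam on the same strand and was at 0.89 to 3.43 CPM in all libraries, so its division from Itgam is uncertain.

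Itgad went the other way. CD11d was at 6.51, 6.82 and 5.16 CPM in the KO libraries, against 41.1 and 45.1 CPM in WT 21 and WT 22, while the library labelled WT 23 had 6.49 CPM. The gap between the KO libraries and WT 21 and WT 22 was far wider than the spread within either, and the library labelled WT 23 lay among the KO libraries. Without it the log2 fold change was -2.80 (SE 0.14, 95% interval -3.11 to -2.49) at an adjusted p of 4.242e-08, with means of 6.16 ± 0.88 CPM in KO cells (SD, n = 3) and 43.1 ± 2.84 CPM in WT 21 and WT 22 (SD, n = 2). Over all 6 libraries the log2 fold change was -2.33 (SE 0.63, 95% interval -3.80 to -0.85) at an unadjusted p of 0.00697 and an adjusted p of 0.3375. The ratio of Itgad to Itgax CPM was 0.0132, 0.0147 and 0.0107 in the KO libraries, against 0.0952 and 0.102 in WT 21 and WT 22, and 0.0138 in the library labelled WT 23. Itgam and Itgad, the CD11 genes on either side of Itgax, thus differed in opposite directions between KO cells and WT 21 and WT 22.

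Cox6a2 also fell in KO cells. It encodes the heart and muscle isoform of subunit VIa of cytochrome c oxidase, complex IV of the respiratory chain, and in mouse immune cells it is known from pDCs. It was at 24.1, 23.5 and 20.5 CPM in the KO libraries, against 122.9 and 118.2 CPM in WT 21 and WT 22, while the library labelled WT 23 had 24.5 CPM. That library lay just above the highest KO library, so Cox6a2 was the only tested member whose groups as labelled did not overlap. A lower KO group with no overlap over 6 libraries was found for 8.73% of all genes tested. Without the library labelled WT 23 the log2 fold change was -2.40 (SE 0.08, 95% interval -2.59 to -2.22) at an adjusted p of 1.576e-09, 5.31-fold higher in WT 21 and WT 22 than in KO cells. With all 6 libraries it was -1.96 (SE 0.53) at an unadjusted p of 0.006783 and an adjusted p of 0.3375. Its ubiquitous paralog Cox6a1, which shares no word of 50 bases with it, was at 189.4 to 205.9 CPM in the KO libraries and 196.8 to 201.2 CPM in WT 21 and WT 22, with a log2 fold change of 0.01 (SE 0.05) at an adjusted p of 0.9155.

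**Figure D1:**
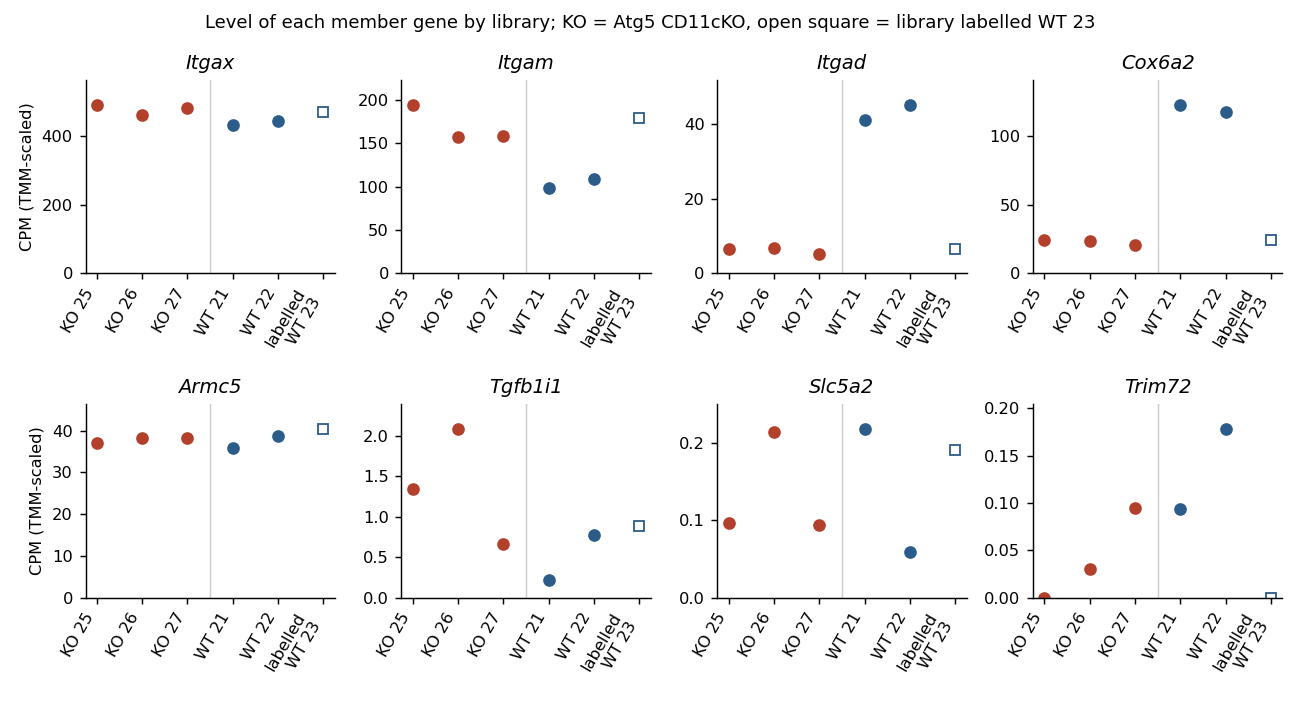
Level of the 8 genes with a row, in CPM scaled by TMM on a linear axis from 0, with 1 point per library (KO 25, 26 and 27 in red, WT 21 and 22 in blue, the library labelled WT 23 as an open square). Itgad and Cox6a2 are high in WT 21 and WT 22 only, Itgam is lower in them than in the other 4 libraries, and Itgax and Armc5 are nearly level.

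The genes beyond Itgad gave no call. Armc5, an armadillo-repeat adaptor of the CUL3 ubiquitin ligase, was at 37.0, 38.2 and 38.3 CPM in the KO libraries, against 35.8 and 38.6 CPM in WT 21 and WT 22, while the library labelled WT 23 had 40.3 CPM. Its groups overlapped, and its log2 fold change was 0.03 without the library labelled WT 23 (95% interval -0.17 to 0.23, adjusted p 0.8381) and -0.01 over 6 libraries (95% interval -0.22 to 0.19, adjusted p 0.9418). The interval without that library leaves room for a difference of up to 0.23 on the log2 scale. In the comparison without that library, Cul3, its partner, was 0.21 higher on that scale (SE 0.07, adjusted p 0.0483), and Polr2a, the RNA polymerase II subunit that ARMC5 acts on, was at -0.03 (adjusted p 0.8698).

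Tgfb1i1 encodes HIC-5, a relative of paxillin found at focal adhesions of smooth muscle and other contractile cells. It had 42.0, 68.0 and 21.0 counts in the KO libraries, against 7.09 and 26.0 in WT 21 and WT 22, and 28.0 in the library labelled WT 23. In CPM these were 1.35, 2.08 and 0.66 in the KO libraries, against 0.218 and 0.770 in WT 21 and WT 22, and 0.891 in the library labelled WT 23, so the groups overlapped. The log2 fold change was 1.46 (SE 0.68, 95% interval -0.03 to 2.95) at an adjusted p of 0.1305 without the library labelled WT 23, and 1.12 at an adjusted p of 0.4036 over 6 libraries. Without WT 22 as well it was 2.63 at an adjusted p of 0.03978, in a range of adjusted p from 0.03978 to 0.4248 over 14 alternatives. The summed level of 6 stellate and smooth muscle markers was 8.66 to 9.87 CPM in the KO libraries, against 4.14 to 5.45 CPM in WT 21 and WT 22, and 6.68 CPM in the library labelled WT 23, and 2 of the 6 were called higher. The part of such cells in the Tgfb1i1 level was not tested. Of the paxillin family, Lpxn, the leukocyte member, was 0.89 higher on the log2 scale (SE 0.07, adjusted p 2.338e-06), and Pxn was at 0.11 (adjusted p 0.294).

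Slc5a2 and Trim72 were close to the limit of detection. Slc5a2, the glucose transporter SGLT2 of the kidney tubule, had 3.13, 7.45 and 3.19 counts in the KO libraries, against 6.97 and 2 in WT 21 and WT 22, and 5.85 in the library labelled WT 23. Trim72, the muscle membrane-repair protein MG53, had 0, 1 and 3.01 counts in the KO libraries, against 3 and 6.49 in WT 21 and WT 22, and 0 in the library labelled WT 23. A count of 0 allows up to 3 counts, or 0.0888 to 0.0962 CPM over the libraries, for counting error only. Both genes were removed by the filter on low counts and were not tested, so a difference was not detectable at this depth. Kidney tubule markers summed to 0.34 to 0.79 CPM in the KO libraries and 0.21 to 0.34 CPM in WT 21 and WT 22, and 1 of the 5 passed the filter.

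Over all 6 libraries as labelled, edgeR called 0 of the 6 members tested, and percent called was 0 in all 17499 genes. At an unadjusted p under 0.05 there were 2 of the 6 members, Itgad and Cox6a2, and 14.4% of all genes (2515). DESeq2 and limma-voom called 0 members, while DESeq2 called 37 genes higher and 305 lower in the whole table. Without the library labelled WT 23, 2 of 6 members were higher and 2 were lower, 33.3% each, where 15.9% of 18241 genes were higher and 15.1% were lower, 31% in either direction. The groups did not overlap for 2 members with KO higher and 2 with KO lower, where that held for 27% and 28% of all genes. Over all 6 libraries the groups of 0 members did not overlap with KO higher (9.58% of all genes) and those of 1, Cox6a2, with KO lower (8.73%). With 6 members tested, these shares rest on few genes. The median log2 fold change of all genes was -0.01 in both comparisons. Only 5 of the 8 genes had 10 or more counts in every library.

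Per kilobase of exon, the members can be set in order. In the KO libraries Itgax was at 99.8 ± 2.98 CPM per kb (SD, n = 3), Itgam at 33.8 ± 4.11, Cox6a2 at 33.4 ± 2.79, Armc5 at 9.84 ± 0.19, Itgad at 1.37 ± 0.20 and Tgfb1i1 at 0.24 ± 0.13. In that order the libraries of Itgam and Cox6a2 overlapped, and those of the other neighbours did not. In WT 21 and WT 22 Cox6a2 came first at 177.3 ± 4.97 CPM per kb (SD, n = 2), then Itgax at 91.2 ± 1.73, Itgam at 20.7 ± 1.49, Armc5 at 9.67 ± 0.52, Itgad at 9.56 ± 0.63 and Tgfb1i1 at 0.09 ± 0.07. There the libraries of Armc5 and Itgad overlapped. Slc5a2 and Trim72 had the lowest means in both, at 0.05 or less in KO cells and 0.06 or less in WT 21 and WT 22, and could not be told apart. In WT 21 and WT 22 the libraries of Tgfb1i1 overlapped those of both, so the last 3 genes had no order there.

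Of the chains that pair in beta2 integrins, CD18 rose in KO cells and CD11a did not pass the test. Itgb2 was at 689.0, 713.9 and 728.5 CPM in the KO libraries, against 366.9 and 358.4 CPM in WT 21 and WT 22, while the library labelled WT 23 had 683.8 CPM. Its log2 fold change without that library was 0.98 (SE 0.04) at an adjusted p of 2.182e-09, and 0.60 (SE 0.24) at an adjusted p of 0.3461 over all 6. Itgal was at 375.4, 342.6 and 366.1 CPM in the KO libraries, against 351.1 and 350.3 CPM in WT 21 and WT 22, with a log2 fold change of 0.05 (95% interval -0.05 to 0.14) at an adjusted p of 0.4372. Per kilobase of exon, Itgb2 stood at 232.8 ± 6.55 CPM per kb in KO cells (SD, n = 3) and 118.8 ± 1.96 in WT 21 and WT 22 (SD, n = 2), above each of the alpha chains in both groups.

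**Figure D2:**
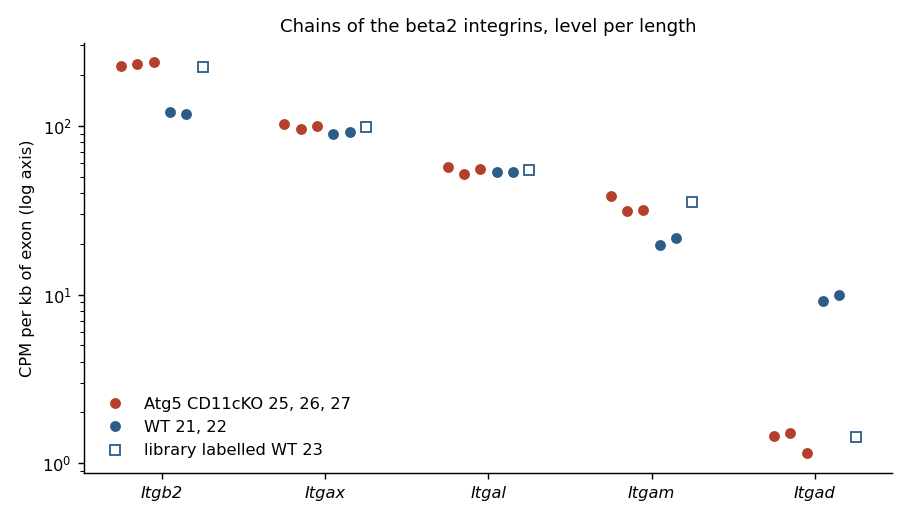
CPM per kb of exon on a log axis for Itgb2 and the 4 alpha chains, with 1 point per library (KO in red, WT 21 and 22 in blue, the library labelled WT 23 as an open square). Itgb2 and Itgam are higher in KO cells than in WT 21 and WT 22, the groups nearly coincide for Itgal and Itgax, and Itgad averages 1.37 in KO cells and 9.56 in WT 21 and WT 22.

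Other genes of integrin function were read from lists, in the comparison without the library labelled WT 23. Of 15 beta2 chains and other leukocyte integrins, 7 were higher and 4 were lower, with a median log2 fold change of 0.50. Itgb5, the partner of alpha v in binding vitronectin, was at 2.14 (SE 0.04, adjusted p 1.184e-11), Itgb1 was at 0.50 (SE 0.04, adjusted p 1.788e-06), and Itgae, the CD103 chain of cDC1 and tissue T cells, was at -1.29 (SE 0.07, adjusted p 8.515e-08). Of 7 activators, 3 were higher and 1 was lower (median 0.11), with Rap1a, the GTPase that switches integrins on, at 0.33, its effector Apbb1ip (RIAM) at 0.49, Rap1b at 0.16 and Cyth1 (cytohesin-1) at -0.19. Of 10 signalling genes below beta2 integrins, 8 were higher and 0 were lower (median 0.29), among them the adaptors Fcer1g at 0.78 and Tyrobp at 0.41 and the Src family kinase Lyn at 0.31. These shares stand against 15.9% higher and 15.1% lower in all genes, whose median was -0.01. The medians of the 3 lists over all 6 libraries were 0.26, 0.07 and 0.18.

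Ligands of the beta2 integrins were divided. Of 11, 3 were higher and 4 were lower, with a median of -0.57. Icam1, the main ligand of LFA-1 and Mac-1, was at 0.52 (SE 0.04, adjusted p 2.192e-06), and F11r, which encodes the junctional adhesion molecule JAM-A, was at 1.46 (SE 0.08, adjusted p 6.346e-08). The 3 fibrinogen chains Fgb, Fga and Fgg, ligands of Mac-1 that hepatocytes secrete, were at -2.79, -2.36 and -2.27. The 5 hepatocyte markers were lower too, with summed levels of 171.6 to 187.8 CPM in the KO libraries, against 970.0 to 971.2 CPM in WT 21 and WT 22. Of 7 regulators of Itgax and Itgam, 4 were higher and 2 were lower, with a median of 0.39. Spi1 (PU.1) was at 0.58 (SE 0.04, adjusted p 2.965e-07), Zeb2 at 1.21, Cebpa at 1.09 and Irf8, the factor of pDCs and cDC1, at -0.45 (SE 0.02, adjusted p 9.191e-09). Of 9 paralogs and partners of the neighbouring genes tested, 2 were higher, Lpxn and Cul3, and 0 were lower (edgeR), with a median of 0.21. The medians over all 6 libraries were -0.36 for the ligands, 0.24 for the regulators and 0.11 for the paralogs and partners.

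Several lists of cell type markers also differed between KO cells and WT 21 and WT 22, in both directions. CD11c+ cells here held the defining markers of cDC1 (Xcr1 at 180 to 185 CPM in the KO libraries and 255 to 266 CPM in WT 21 and WT 22) and those of cDC2 and macrophages. Among the cDC2 markers, Cd209a was at 34.6 to 35.1 CPM in the KO libraries and 223.1 to 224.0 CPM in WT 21 and WT 22, while Sirpa, which macrophages also express, was at 718.3 to 803.7 CPM in the KO libraries and 310.9 to 315.9 CPM in WT 21 and WT 22. In a bulk sample, fewer cells of a type and less RNA per cell cannot be told apart. Beside Itgam, the lipid-associated macrophage list was higher in all 5 genes, with summed levels of 2817 to 2821 CPM in the KO libraries, against 445.4 to 454.1 CPM in WT 21 and WT 22, and 2845 CPM in the library labelled WT 23. The 5 cDC2 markers summed to 978.2 to 1069 CPM in the KO libraries, against 693.2 to 704.2 CPM in WT 21 and WT 22 (3 higher, 2 lower). Sirpa carries the direction of that sum, since the other 4 markers summed to 259.9 to 270.2 CPM in the KO libraries, against 382.3 to 388.3 CPM in WT 21 and WT 22. Those 4 markers were themselves divided, 2 higher and 2 lower, so their sum gives no common direction. Without the library labelled WT 23, the log2 fold changes were 1.32 for Mgl2 and 0.82 for Irf4. They were -2.67 for Cd209a and -0.42 for Clec10a. The 5 monocyte markers summed to 1076 to 1185 CPM in the KO libraries, against 1172 to 1224 CPM in WT 21 and WT 22 (2 higher, 3 lower). Of 6 neutrophil markers 4 were tested and 3 were lower, with sums of 19.8 to 21.9 CPM in the KO libraries, against 60.4 to 60.6 CPM in WT 21 and WT 22. Of the other lists, 1 cDC1 marker was higher and 4 were lower of 5, all 4 T cell and 3 of 4 NK cell markers were lower, and edgeR called 0 of 4 B cell markers. The B cell markers summed to 15.6 to 18.5 CPM in the KO libraries, against 21.2 to 25.0 CPM in WT 21 and WT 22. The marker counts here and below stand against 15.9% higher and 15.1% lower in all genes. The part of these cells in the Itgam difference was not tested.

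Beside Itgad and Cox6a2, all 7 pDC markers were lower, with summed levels of 648.8 to 657.3 CPM in the KO libraries, against 1693 to 1720 CPM in WT 21 and WT 22, and 670.3 CPM in the library labelled WT 23. Siglech, the pDC lectin, was at 299.3, 301.1 and 297.2 CPM in the KO libraries, against 772.0 and 758.1 CPM in WT 21 and WT 22, a log2 fold change of -1.35 (SE 0.03), or -1.03 (SE 0.32, adjusted p 0.3375) over all 6 libraries. The ratio of Cox6a2 to Siglech was 0.0804, 0.0780 and 0.0691 in the KO libraries, against 0.159 and 0.156 in WT 21 and WT 22, and 0.0807 in the library labelled WT 23. Over the list, levels were 1.63-fold (Tcf4) to 8.73-fold (Klk1) higher in WT 21 and WT 22 than in KO cells. Siglech was at 2.56-fold, Ccr9 at 2.57-fold and Ly6d at 3.40-fold. The 5.31-fold of Cox6a2 lay above those of Tcf4, Siglech, Ccr9 and Ly6d, and below that of Klk1. Of the 5 red pulp macrophage markers 3 were lower, with sums of 805.6 to 827.8 CPM in the KO libraries, against 1275 to 1319 CPM in WT 21 and WT 22. All 5 Kupffer cell markers were lower, at 640.6 to 660.3 CPM in the KO libraries, against 1270 to 1283 CPM in WT 21 and WT 22. The 5 pancreatic acinar markers, all lower, summed to 178.5 to 185.6 CPM in the KO libraries, against 8177 to 8284 CPM in WT 21 and WT 22, beside the hepatocyte sums given with the fibrinogen chains. The 13 protein-coding genes of the mitochondrial genome were all lower as well, by log2 fold changes of -2.38 to -1.62, with sums of 5507, 5424 and 5259 CPM in the KO libraries, against 21343 and 20893 CPM in WT 21 and WT 22, and 5280 CPM in the library labelled WT 23. The part of these cells and of mitochondrial RNA in the Itgad and Cox6a2 levels was not tested. Striated muscle, where Cox6a2 is also known, was read from a list drawn mainly from skeletal muscle. Its 6 markers summed to 1.54 to 2.51 CPM in the KO libraries and 3.98 to 5.51 CPM in WT 21 and WT 22. That was 2.22-fold higher in WT 21 and WT 22, and 1 of the 3 tested was lower in KO cells. The part of muscle cells in the Cox6a2 level was not tested. Mb, which encodes myoglobin, was at 0 counts in KO 26, KO 27 and the library labelled WT 23.

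**Figure D3:**
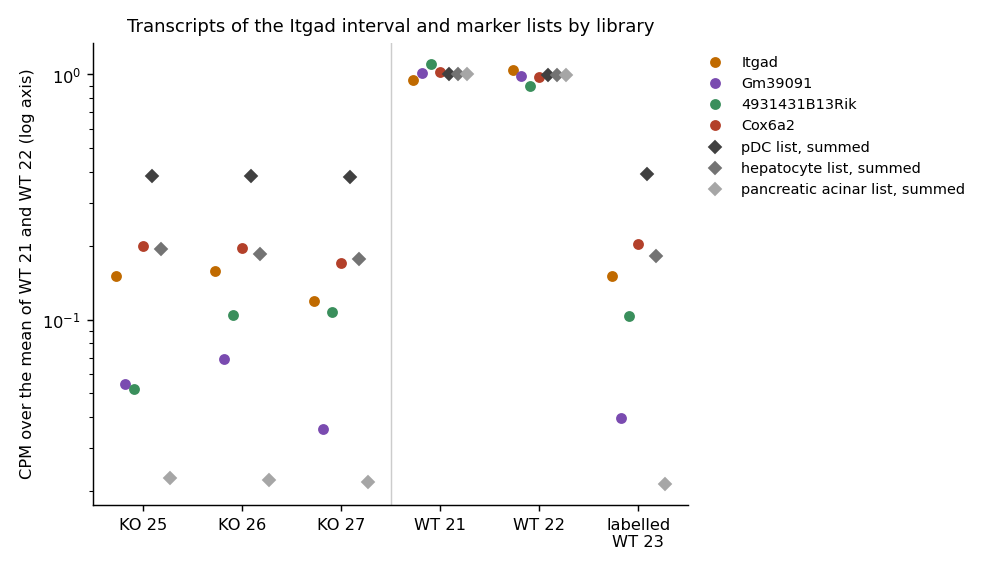
CPM of 4 transcripts of the Itgad interval (circles) and summed CPM of 3 marker lists (diamonds) in each library, divided by the mean of WT 21 and WT 22, on a log axis. All 7 are low in the KO libraries and in the library labelled WT 23, by amounts that differ between them, from the pDC list to the pancreatic acinar list.

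The interval of Itgad holds other transcripts that were low where Itgad was low. Gm39091, an antisense model inside Itgad, had 14.7, 19.9 and 9.64 counts in the KO libraries, against 288.9 and 293.0 in WT 21 and WT 22, and 10.6 in the library labelled WT 23. Its log2 fold change was -4.22 (SE 0.31, adjusted p 1.185e-06) without that library and -3.67 (SE 1.03, adjusted p 0.3375) with it. For 4931431B13Rik, on the same strand as Gm39091, the counts were 9.98, 21.0 and 20.9 in the KO libraries, against 219.5 and 186.5 in WT 21 and WT 22, and 19.7 in the library labelled WT 23, with a log2 fold change of -3.49 (SE 0.36, adjusted p 1.96e-05) without it and -2.99 (SE 0.82, adjusted p 0.3375) with it. The exons of Itgad overlap those of Cox6a2 by 70 bases (10.3% of Cox6a2), those of 4931431B13Rik by 388 bases (27.0% of it) and those of Gm39091 by 102 bases (18.4% of it), each on the opposite strand. The sources used here do not say whether counting used strand, so reads of these genes cannot be told apart where they overlap. The ratio of Cox6a2 to Itgad CPM was 3.70, 3.45 and 3.98 in the KO libraries, against 2.99 and 2.62 in WT 21 and WT 22, and 3.78 in the library labelled WT 23, so the difference was larger for Itgad in these libraries. Armc5 likewise overlaps 9130023H24Rik by 690 exon bases on the opposite strand, and Slc5a2 overlaps BC017158 by 597 and Trim72 overlaps Gm15533 by 617.

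Within 500 kb of the Itgax start, 54 genes had a row, and 36 were tested without the library labelled WT 23. Of these 6 were higher and 6 were lower, 16.7% each, next to 15.9% and 15.1% of all genes, with a median log2 fold change of 0.17. Over all 6 libraries, edgeR called 0 of the 35 genes tested, and 8 of them reached an unadjusted p under 0.05, where 14.4% of all genes did. Among these 8 were Itgad and Cox6a2, Gm39091 and 4931431B13Rik, whose exons overlap those of Itgad. DESeq2 called 0 higher and 2 lower in the window, where it called 37 higher and 305 lower over all genes. Of the 30 tested genes that are not members, 4 were higher and 4 were lower without the library labelled WT 23. Bag3, a co-chaperone of selective autophagy 394.1 kb beyond the Itgax start, was at 45.0, 51.3 and 46.4 CPM in the KO libraries, against 16.6 and 15.4 CPM in WT 21 and WT 22, a log2 fold change of 1.58 (SE 0.11, adjusted p 5.461e-07), or 0.91 (SE 0.39, adjusted p 0.347) over all 6 libraries. Zfp646 at 0.61, Kat8 at 0.43 and Tial1 at 0.36 were the others higher, and those lower included Bckdk at -0.21, Gm39091 and 4931431B13Rik.

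The genes that border the members did not pass the test. On the side of Trim72, the gene model Gm45205 was at -2.33 (95% interval -4.19 to -0.47, adjusted p 0.05827) at no more than 2.43 CPM in any library, and Pycard, the inflammasome adaptor ASC, was at 0.17 (95% interval 0.03 to 0.31, adjusted p 0.06238), and on the side of Slc5a2, BC017158 was at -0.01 (95% interval -0.28 to 0.26, adjusted p 0.9713). Inside the block, Itgad and Cox6a2, lower in KO cells, lie between Itgax, slightly higher, and Armc5, which gave no call. The calls beside Itgax were thus of both directions, and whether the transgene carries any of these genes was not tested.

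**Figure D4:**
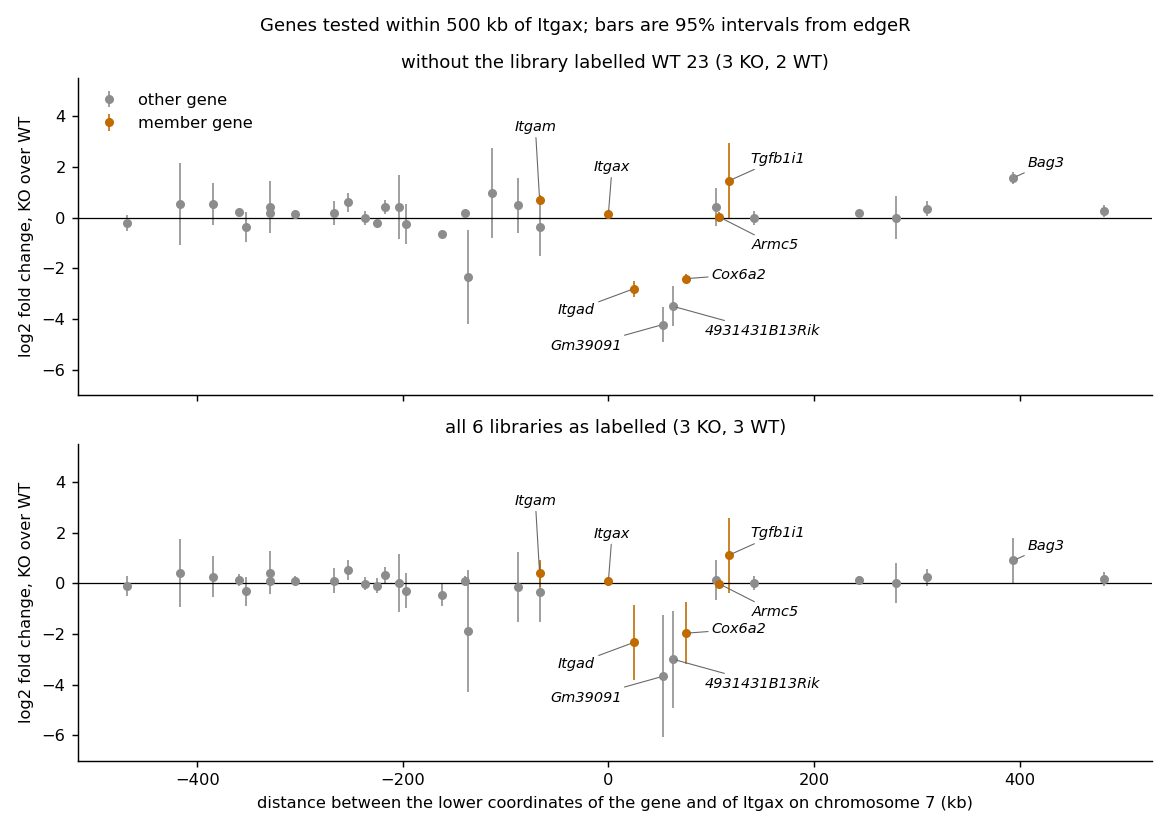
Log2 fold change, KO over WT, from edgeR for the tested genes within 500 kb of Itgax, by distance in kb between the lower coordinates of the gene and of Itgax on chromosome 7 (orange for members, grey for others, bars for 95% intervals), without the library labelled WT 23 above and over all 6 libraries as labelled below. The 4 genes of the Itgad interval lie between -2.40 and -4.22 in the upper panel, and their intervals are wider in the lower panel.

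The genes whose profiles over the 6 libraries were most like a member's were found by the root mean square difference of centred log2 CPM among 10801 genes. For Itgax these were Arhgap27 (0.01), Grpel1 (0.01) and Treml4 (0.02), which are about as level as Itgax. For Itgam they were Atxn3 (0.05), Gm6977 (0.05) and Bicd2 (0.06), and for Armc5 Pisd, Fam160a2 and Ikbkb (0.02 each). For Itgad they were F2 (0.07), Pigr (0.11) and Kng1 (0.12), and for Cox6a2 Alb (0.07), mt-Nd1 (0.07) and mt-Nd5 (0.07). F2, Kng1 and Alb encode the hepatocyte proteins prothrombin, kininogen and albumin. Alb was at 106.2, 97.9 and 93.4 CPM in the KO libraries, against 543.5 and 532.3 CPM in WT 21 and WT 22, 5.43-fold higher there, beside the 5.31-fold of Cox6a2. The mitochondrial mt-Nd1 and mt-Nd5, which encode subunits of complex I, were 5.12-fold and 4.76-fold higher there. With 6 libraries in 2 blocks of 4 and 2, many genes share such a profile, and the likeness is a description.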

How the data were processed

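RNA-seq of hepatic CD11c+ cells was analysed from the processed tables. The authors deposited estimated counts per gene, for which the submitters' processing notes name Partek, STAR 2.5.3a, bcl2fastq 2.17.1.14 and the build mm10. The sources used here do not give the counting step, the annotation version or whether strand was used. Of these values, 32.9% were whole within 1e-06. A second deposited table holds a normalized signal, in which the authors added 1 to each estimated count and scaled every library by its own factor, for 20388 of 31426 genes. It was used only as an alternative.

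Counts were rounded, filtered with filterByExpr, scaled by TMM and compared by edgeR 4.0.16 (quasi-likelihood test, Benjamini-Hochberg adjustment over all genes tested, threshold 0.05) in R 4.3.3, KO over WT. The alternatives used DESeq2 1.42.0, limma 3.58.1, other scalings and filters, unrounded counts, other windows and each library left out in turn. Plots and sequences were made with Python 3.11.15, matplotlib 3.10.9, Biopython 1.88 and MAFFT. Coordinates matched GENCODE vM21 for 99.75% of genes after allowing for an end 1 base further, and exon lengths and transcripts were taken from it. The planned comparison of alpha chain proteins was made on coding sequences, since no protein sequences were used here. The procedure was tested on simulated counts.

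The members and gene lists were chosen with earlier results of these data known. The text names all members, the called and bordering genes within 500 kb, Atg5, up to 4 genes of each list by adjusted p, Itgb2, Itgal, and the 3 genes nearest in profile to each member with a mean of at least 5 CPM. Other marker genes were named after their values were seen. Some genes that this rule names are not reported here.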

Additional observations from a re-analysis of the deposited data

How the results depend on the processing

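The library labelled WT 23 decides the calls. Leaving out each library in turn, the comparison of 6 libraries gave 0 to 2 members higher and 0 to 2 lower, and 0 to 6 genes higher and 0 to 6 lower within 500 kb, where the highest counts came from leaving out the library labelled WT 23. DESeq2 over 6 libraries called 2 genes lower within 500 kb, against 0 by edgeR. Without the library labelled WT 23, leaving out a further library gave 1 to 3 members higher and 2 to 2 lower, and 3 to 6 genes higher and 5 to 7 lower within 500 kb. The lone WT library of such a fit was assumed to vary like the KO libraries. A window of 250 kb gave 3 genes higher, and a window of 1000 kb gave 11 lower. Armc5 changed sign about 0: leaving out each library, its log2 fold change ranged from -0.060 to 0.031 over 6 libraries (above 0 without KO 25 and without the library labelled WT 23) and from -0.022 to 0.092 without the library labelled WT 23 (below 0 without WT 21). Itgam, Itgad and Cox6a2 kept direction and call in all 14 alternatives without the library labelled WT 23, with log2 fold changes of 0.62 to 0.80, -2.88 to -2.61 and -2.44 to -2.33. Itgax ranged from 0.12 to 0.16, with adjusted p from 0.003114 to 0.07754. Over all genes, DESeq2 called 37 higher and 305 lower over 6 libraries, against 0 by edgeR. No paired analysis was possible because the groups share no replicate numbers.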
